A study of Mus musculus with 12 samples.

Results

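Entry into S phase is set by a small group of genes, and 10 of them were followed here in poly(A) RNA of mouse embryonic stem cells with and without a working Dicer, the enzyme that makes miRNAs and siRNAs from their double-stranded precursors. They are the D-type cyclin genes Ccnd1, Ccnd2 and Ccnd3, the E-type cyclin genes Ccne1 and Ccne2, the CDK inhibitor genes Cdkn1a (p21) and Cdkn1b (p27), and the retinoblastoma family genes Rb1, Rbl1 (p107) and Rbl2 (p130). The genes were chosen by name from the 47643 in the count table, Cdkn1a and Rbl2 among them as reported targets of the miR-290 family. All 10 were among the 14629 genes with enough reads to be tested. The libraries came from E14 cells of the 129/Ola background, grown in serum and LIF on gelatin under puromycin, with 2 libraries in each of 6 groups (n = 2 throughout). KO lacks Dicer. 41585 is a complemented line described as processing neither miRNAs nor siRNAs. SOM is a complemented line whose processing is not described. 41584 is a complemented line described as WT-like, and 41589 is one described as lacking siRNA processing. WT is the control. The meaning of the line names, the extent of the Dicer1 deletion, the sequence put back and the number of clones behind a line were not stated in the descriptions.

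D-type cyclins with Cdk4 or Cdk6, and E-type cyclins with Cdk2, phosphorylate the pocket proteins Rb1, Rbl1 and Rbl2. This releases E2F factors, which switch on genes of DNA replication. Cdkn1a and Cdkn1b bind and inhibit the cyclin-CDK complexes. Mouse embryonic stem cells are known for a short G1 phase, and their miR-290 and miR-302 families are known to act on transcripts of G1/S inhibitors.

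The miR-290 and miR-302 miRNAs listed here share bases 2 to 8, the seed. It is in capitals in the mature sequences below (RefSeq, GRCm38.p6). The sequences are shown because they define the site that was searched for in the 3' UTRs. Sites of other members of these families were not searched for, and their seeds may differ. miR-17, from another cluster, has the same letters shifted by 1 base.
mmu-miR-291a-3p: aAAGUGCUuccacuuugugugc
mmu-miR-294-3p: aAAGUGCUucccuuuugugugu
mmu-miR-295-3p: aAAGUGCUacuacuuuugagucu
mmu-miR-302b-3p: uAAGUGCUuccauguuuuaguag
mmu-miR-302d-3p: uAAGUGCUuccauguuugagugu
mmu-miR-17-5p: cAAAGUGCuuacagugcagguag

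The letters that pair with the seed of the listed miR-290 and miR-302 miRNAs are AGCACTT, and a miR-290/miR-302 site below means these letters. They were found in the 3' UTRs of 5 of the 10 genes, on the transcript strand of GENCODE M21 transcripts (GRCm38), and in 16.4% of the 12837 tested genes with a 3' UTR of at least 50 bases. Cdkn1a held 2 sites and Ccnd1, Ccnd2, Rbl1 and Rbl2 held 1 each. The sites are in capitals with their flanks in lower case. They are shown because they separate these genes from Ccnd3, Ccne1, Ccne2, Cdkn1b and Rb1, which held no AGCACTT.
Cdkn1a, first site, chr17:29099828-29099834, plus strand: cagacctgaatAGCACTTtggaaaaatga
Cdkn1a, second site, chr17:29100500-29100506, plus strand: gtgggtgtcaaAGCACTTagtgggtctga
Rbl2, chr8:91123830-91123836, plus strand: tttttcaataaAGCACTTataaatta
Rbl1, chr2:157147478-157147484, minus strand: tgcctgatcaaAGCACTTttggattgttc
Ccnd1, chr7:144931677-144931683, minus strand: ttccatttcaaAGCACTTttggtcagcta
Ccnd2, chr6:127129341-127129347, minus strand: tccattagaaaAGCACTTtgaaaattttg

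The Rbl2 site starts at base 1384 of a 3' UTR of 1398 bases and its first base is the last base of a polyadenylation signal, AATAAA. The Rbl1 site starts at base 22 of 1613. The miR-17 letters, GCACTTT, were found in 13.9% of the tested 3' UTRs and in Ccnd1, Ccnd2, Cdkn1a, Rb1, Rbl1 and Rbl2. They overlap the miR-290/miR-302 site in Ccnd1, Ccnd2, Rbl1 and the first site of Cdkn1a. Of the letters searched for, Rb1 held only those of miR-17, at chr14:73196361-73196367 on the minus strand.
Rb1, miR-17 site: acaacccaagtGCACTTTttaatgtttct
The let-7 letters, CTACCTC, were in none of the 10 genes and in 9.86% of tested 3' UTRs. The miR-15/miR-16 letters, TGCTGCT (23% of 3' UTRs), were in Ccnd1, Ccnd2, Ccnd3, Ccne1, Cdkn1a and Rbl2. The miR-221/miR-222 letters, ATGTAGC (10.1%), were in Ccnd2 and Cdkn1b, and the miR-34 letters, CACTGCC (16.3%), in Ccne2. A match says only that these letters are present.

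The libraries held 5348401 to 10428509 counted reads, and mitochondrial genes took 3.17 to 5.18% of them. Levels are given as CPM, which scales each count to the library's TMM-adjusted total. Dicer1 was at 28.5 and 44 CPM in KO and 197 and 214 CPM in WT. It was also low in 41585, 41584 and 41589 (27.8 to 55 CPM) and at 105 and 215 CPM in SOM. All 10 embryonic stem cell markers were at 5 CPM or more in every library, with summed levels of 7350 to 8020 CPM in KO and 41585 and 6060 to 7260 CPM in the 4 other lines. The 5 neuroectoderm markers summed to 46.6 to 62.7 CPM in KO and 41585, against 14.7 to 27.8 CPM in the other lines. Most of this was Nes, and Neurog2 and Olig2 were at 0 in KO and 41585 and at no more than 1 count elsewhere. Pax6 was at 3.08 to 5.79 CPM in KO and 41585 and 0.128 to 3.94 CPM in the other lines. Sox1 leaned the other way, with 1.05 to 1.69 CPM in KO and 41585 and 1.28 to 9.12 CPM in the other lines. The 6 primitive endoderm markers summed to 5.85 to 9.26 CPM in KO and 41585 and 8.95 to 67.5 CPM in the other lines, the highest in 41584 replicate 1. Of these, Gata4 ran against the sum outside that library. It had 3.85 to 7.33 CPM in KO and 41585, 10.9 CPM in 41584 replicate 1 and 0.639 to 3.71 CPM in the rest. Summed trophectoderm and fibroblast markers overlapped between these groups, and the 5 mesendoderm markers stayed at or below 3.4 CPM. The part of these markers in the results was not tested. In these bulk libraries, fewer cells that express a gene and less of its RNA per cell cannot be told apart.

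**Figure D1:**
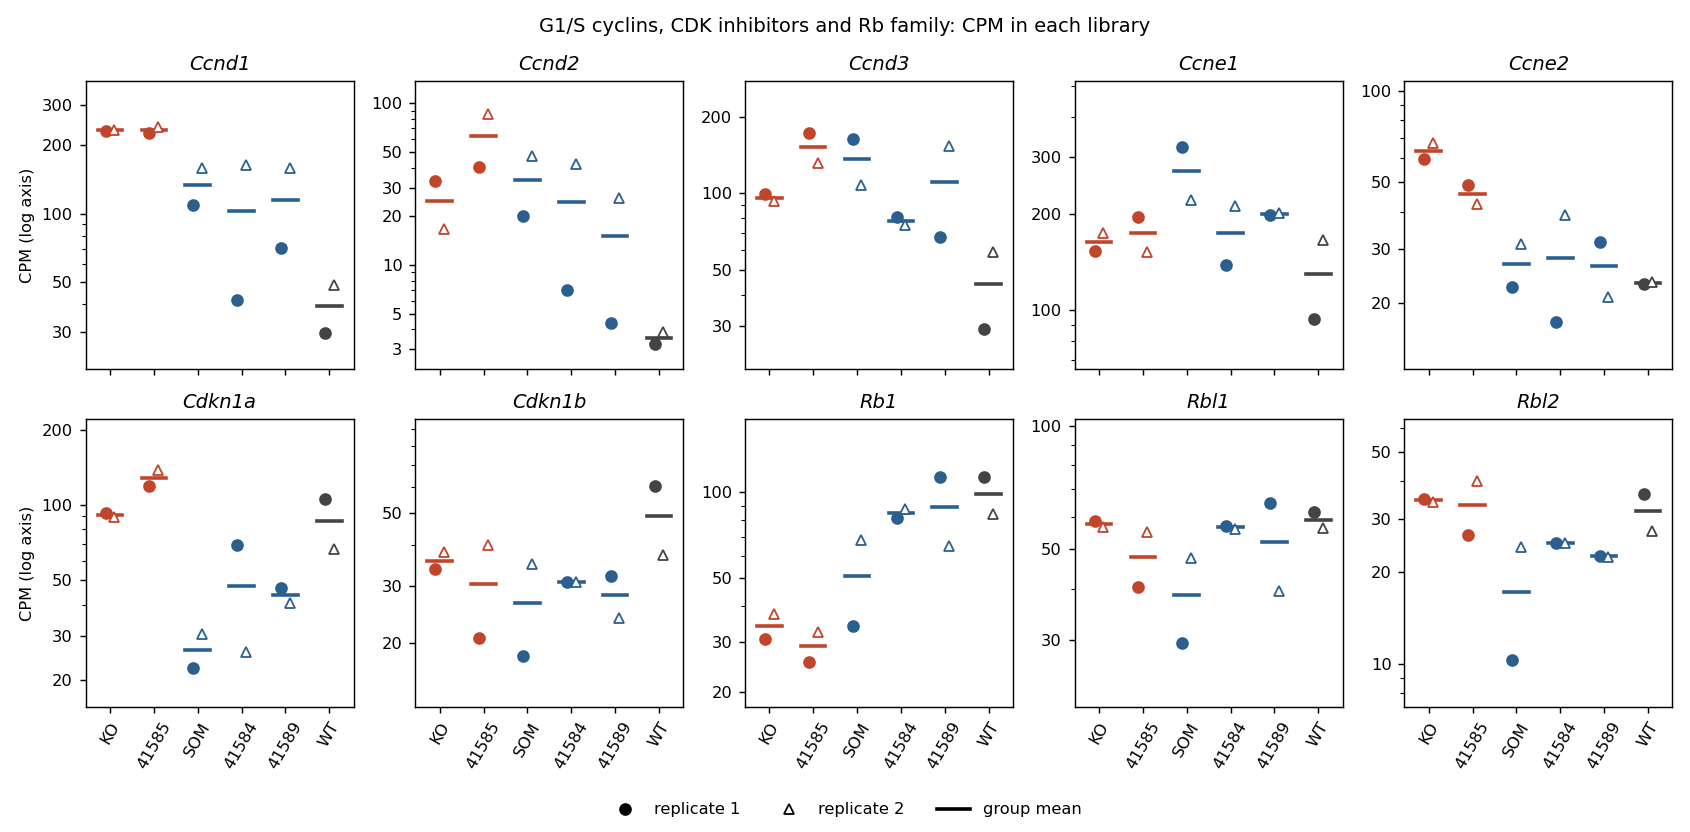
CPM of each of the 10 genes in each library on a log axis, with KO and 41585 in red, SOM, 41584 and 41589 in blue and WT in grey. Symbols mark the replicates and bars the group means; Ccnd1 lies at 226 to 239 CPM in KO and 41585 and at 29.7 to 163 CPM in the other lines, and Rb1 is lowest in KO and 41585.

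Among the 10 genes, Ccnd1 and Ccne2 mRNA was higher and Rb1 mRNA lower in the lines without miRNA processing. Line totals of KO and 41585 were set against those of SOM, 41584, 41589 and WT, so that lines and not libraries are the replicates (2 lines against 4). In this comparison edgeR's quasi-likelihood test called 3 of the 10 genes at a Benjamini-Hochberg adjusted p under 0.05, against 22.4% of all tested genes (13.9% higher and 8.54% lower). Ccnd1 and Ccne2 were higher and Rb1 was lower. The other cyclin genes, Ccnd2 (adjusted p = 0.18), Ccnd3 (0.393) and Ccne1 (0.655), were not called. A count of 3 among 10 genes is not far from the share over all genes. The median log2 fold change was 0.50 over the 10 genes and 0.02 over all genes. Without SOM, whose processing is not described, the same genes were called, with folds of 1.50 for Ccnd1 (adjusted p = 0.0217), 1.15 for Ccne2 (0.00664) and −1.47 for Rb1 (0.00164).

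Ccnd1 had the highest CPM per kb of the D-type cyclins in every library but 41584 replicate 1, where Ccnd3 was higher. It had 230 and 234 CPM in KO, 226 and 239 CPM in 41585, 109 and 159 CPM in SOM, 41.7 and 163 CPM in 41584, 70.6 and 159 CPM in 41589, and 29.7 and 48.5 CPM in WT. All 4 libraries of KO and 41585 lay above all 8 others. Such a gap, in that direction, was found in 10.2% of tested genes. Within 41584 and 41589 the 2 libraries lay far apart, and replicate 1 of 41584 was inside the WT range. The log2 fold change of KO and 41585 against the other lines was 1.30 ± 0.36 (SE), with an adjusted p of 0.031. This call was lost without SOM replicate 1 (adjusted p = 0.0543), 41584 replicate 1 (0.121), 41589 replicate 1 (0.119) or WT replicate 2 (0.0854), without the line KO (0.126), 41585 (0.171) or 41584 (0.0765), and with no filter on low counts (0.194). Against WT alone, Ccnd1 rose by 2.56 ± 0.54 in KO (adjusted p = 0.0107) and by 2.57 ± 0.54 in 41585 (0.00684). The KO call was lost without KO replicate 1 (0.0637) or WT replicate 1 (0.126), and the 41585 call without WT replicate 1 (0.0904). The order of group means was KO and 41585 at 232 CPM each, then SOM, 41589, 41584 and WT. The libraries of SOM, 41589 and 41584 overlapped, as did those of 41584 and WT.

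Ccnd2 was the least abundant D-type cyclin in CPM per kb. It had 32.9 and 16.6 CPM in KO, 40.4 and 86.1 CPM in 41585, 20.1 and 47.2 CPM in SOM, 7.03 and 42.1 CPM in 41584, 4.38 and 25.8 CPM in 41589, and 3.25 and 3.83 CPM in WT. Both WT libraries were below all others. Of the remaining 5 lines, neighbours in the order of means overlapped, while both 41585 libraries lay above those of KO and 41589. It rose in 41585 against WT by 4.15 ± 0.93 (adjusted p = 0.00894), a call lost without WT replicate 1 (0.0959). The KO difference from WT was 2.81 ± 0.90 (adjusted p = 0.057) and was called with no filter (7.15e-10), with only these groups in the fit (0.00054) and with the replicate number as a block (0.0131). The WT libraries rest on counts as low as 21, so the size of these folds is poorly fixed.

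Ccnd3 had 99.5 and 93.1 CPM in KO, 173 and 132 CPM in 41585, 164 and 108 CPM in SOM, 80.5 and 75.2 CPM in 41584, 67.6 and 154 CPM in 41589, and 29.2 and 58.7 CPM in WT. Again WT was the lowest group, with no overlap with 41584, the next in order. In 41585 it rose against WT by 1.79 ± 0.39 (adjusted p = 0.00856), a call lost without 41585 replicate 1 (0.0519) or WT replicate 1 (0.104). In KO the difference from WT was 1.13 ± 0.39 (0.0719, and 0.03 by DESeq2), and KO and 41585 against the other 4 lines gave 0.46 ± 0.37 (0.393). Per kb of exon, the 3 D-type cyclins together amounted to 62 to 75 CPM per kb in KO and 41585 and to 9.98 to 54 CPM per kb in the 8 other libraries, without overlap. Ccnd1 made up 66.6 to 80% of this sum in KO and 41585, so the gap is not separate from that of Ccnd1. How often the sums of other gene families part in this way was not counted. Taken singly, Ccnd2 and Ccnd3 overlapped between these libraries.

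Of the E-type cyclins, Ccne2 was called over the lines and Ccne1 was not, and they were not tested against each other. Ccne2 had 59.5 and 67.4 CPM in KO, 48.9 and 42.3 CPM in 41585, 22.6 and 31.2 CPM in SOM, 17.3 and 38.9 CPM in 41584, 31.8 and 20.9 CPM in 41589, and 23 and 23.4 CPM in WT. KO was the highest group and 41585 the next, with no overlap between them or with any other library, while the remaining lines overlapped. In 10.2% of tested genes the libraries of KO and 41585 lay above all others. Against the other lines it rose in KO and 41585 by 1.12 ± 0.18 (adjusted p = 0.00314). This held in all 12 fits that left out 1 library, with adjusted p up to 0.0376. In KO against WT it rose by 1.45 ± 0.36 (adjusted p = 0.0212), but this call was lost whichever of the 4 libraries was left out (0.0929 to 0.147). In 41585 against WT the difference was 0.97 ± 0.35 (0.0547), and it was called by DESeq2 (0.0402), with no filter (0.0245), with only these groups in the fit (0.00985) and with the replicate block (0.0492).

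Ccne1, the more abundant E-type cyclin, had 153 and 174 CPM in KO, 195 and 152 CPM in 41585, 323 and 220 CPM in SOM, 138 and 211 CPM in 41584, 198 and 201 CPM in 41589, and 94 and 165 CPM in WT. SOM was the highest group and did not overlap 41589, the next, and all other neighbours in the order overlapped. The log2 fold change was −0.17 ± 0.25 in KO and 41585 against the other lines (adjusted p = 0.655) and 0.34 ± 0.31 in KO against WT (0.49). Per kb, Ccne2 made up 16 to 22.9% of E-type cyclin mRNA in KO and 41585 and 5.1 to 15.7% in the 8 other libraries. These shares were not tested, and how often those of other gene families part so was not counted.

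Cdkn1a encodes an inhibitor of Cdk2 complexes that is induced by p53. It had 92.6 and 89.8 CPM in KO, 119 and 138 CPM in 41585, 22.3 and 30.4 CPM in SOM, 68.9 and 25.8 CPM in 41584, 46.5 and 40.6 CPM in 41589, and 106 and 66.8 CPM in WT. All 4 libraries of KO and 41585 lay above the 6 of SOM, 41584 and 41589 (22.3 to 68.9 CPM), as in 11.7% of tested genes when WT is set aside. The WT libraries lay on both sides of KO. KO differed from WT by 0.08 ± 0.37 (adjusted p = 0.905), with a range of −0.21 to 0.45 when 1 library was left out. The difference of 41585 from WT was 0.58 ± 0.37 (adjusted p = 0.243), which was not called either.

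Further comparisons of Cdkn1a set lines without miRNA processing against SOM, 41584 or all the other lines. It was higher in 41585 than in 41584 by 1.44 ± 0.38 (adjusted p = 0.0288), where 2 of the 10 genes were called against 12.7% of all genes. That call was lost without 41585 replicate 1 (0.091), 41585 replicate 2 (0.116) or 41584 replicate 2 (0.0899), and with only these groups in the fit (0.116). Without 41584 replicate 1 the fold was 2.32. Ccnd1 in the same comparison was 1.19 ± 0.51 (0.131), and without 41584 replicate 2 it was 2.46 and called (0.0147). In SOM it fell against KO by 1.79 ± 0.39 on the log2 scale (adjusted p = 0.0175), the only call among the 10 genes there, where 6.08% of all genes were called. No fit that left out 1 of the 4 libraries kept this call (0.0654 to 0.193). KO and 41585 against the 4 other lines gave 1.16 ± 0.37 (adjusted p = 0.0522). Leaving out the line WT gave 1.52 (0.00101), and the value was also called by DESeq2 (0.0116), with RLE scaling (0.0471), with the replicate block (0.00065), over the 6 group means (0.00124) and without KO replicate 2 (0.0476), SOM replicate 1 (0.0403), 41589 replicate 2 (0.0437) or WT replicate 1 (0.0105).

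The difference between the Cdkn1a folds of 41585 against 41584 and of KO against WT was tested directly. It was 1.36 ± 0.52, with an unadjusted p of 0.0224 and an adjusted p of 0.999. In that test 0 genes were called, so the folds are not shown to differ.

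Cdkn1b encodes the other inhibitor, which Skp2 marks for destruction. It had 33.7 and 37.9 CPM in KO, 20.7 and 39.9 CPM in 41585, 18.3 and 34.9 CPM in SOM, 30.7 and 30.8 CPM in 41584, 32.2 and 23.9 CPM in 41589, and 60.5 and 37.1 CPM in WT. WT had the highest mean, 48.8 ± 16.5 CPM (SD), and overlapped KO, the next group. The fold was 0.03 ± 0.26 in KO and 41585 against the other lines (adjusted p = 0.946) and −0.45 ± 0.38 in KO against WT (0.457).

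**Figure D2:**
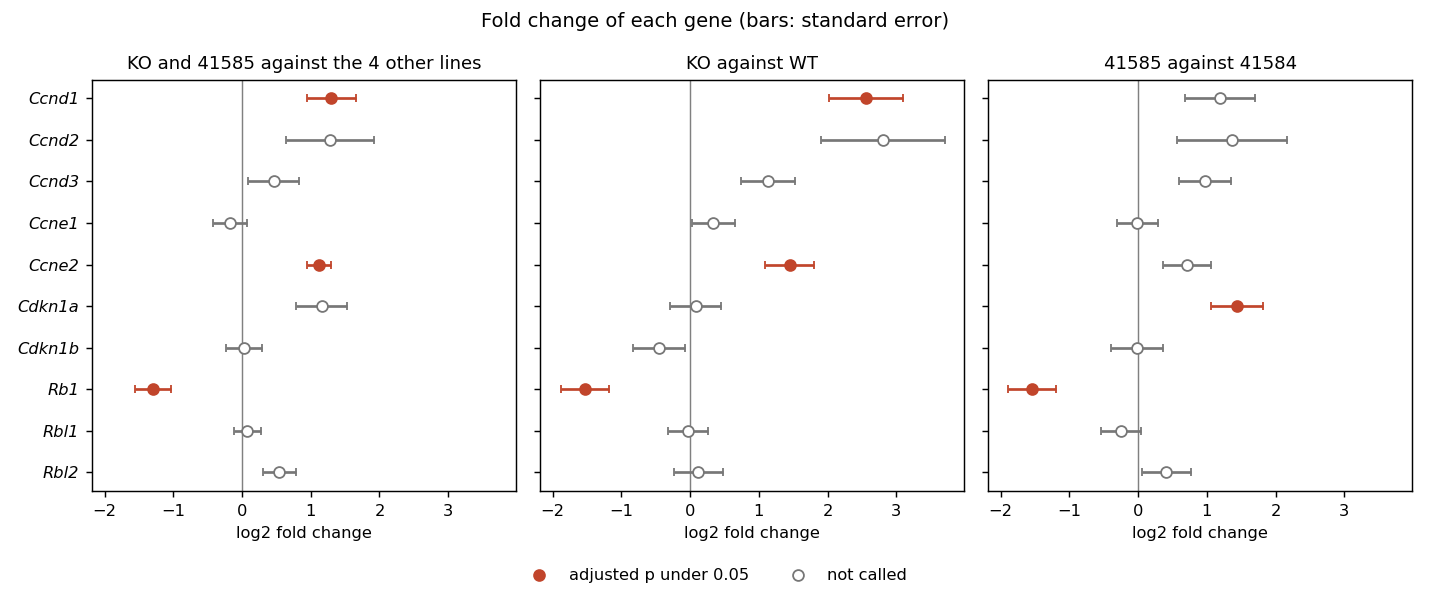
Log2 fold change of each gene with its standard error, for KO and 41585 against the 4 other lines (left), KO against WT (middle) and 41585 against 41584 (right). Red points have an adjusted p under 0.05, and Rb1 is red and below 0 in all 3 panels (−1.30, −1.53 and −1.55).

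Rb1, the founding pocket protein gene, was lower in both lines without miRNA processing. It had 30.7 and 37.4 CPM in KO, 25.4 and 32.5 CPM in 41585, 34.1 and 68 CPM in SOM, 81.7 and 87.4 CPM in 41584, 113 and 65.2 CPM in 41589, and 113 and 83.8 CPM in WT. SOM replicate 1 lay inside the KO range, and the other 7 libraries of the 4 lines lay above KO and 41585. Against the 4 other lines Rb1 fell by 1.30 ± 0.26 on the log2 scale (adjusted p = 0.00834). This call held in all 12 fits without 1 library, with adjusted p up to 0.0374, but not without the line 41585 (−1.23, 0.0764).

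The single-line comparisons of Rb1 ran the same way. In KO against WT it fell by 1.53 ± 0.35 (adjusted p = 0.0146), where 3 of the 10 genes were called against 13.2% of all genes (7.29% higher and 5.9% lower). In 41585 it fell by 1.76 ± 0.35 against WT (0.00549), where 4 were called against 29.2% of all genes (16.3% higher and 12.9% lower), and by 1.55 ± 0.35 against 41584 (0.0158). These calls were lost without KO replicate 1 (0.153), KO replicate 2 (0.0724) or WT replicate 1 (0.128) for KO against WT, and without WT replicate 1 (0.0637) for 41585 against WT. Against 41584, the 41585 call was lost without 41585 replicate 1 (0.122) or replicate 2 (0.0567). Rb1 was higher in 41584 than in KO by 1.31 ± 0.34 (0.0364) and higher in 41589 than in KO by 1.38 ± 0.34 (0.0302), and in SOM the difference from KO was 0.58 ± 0.34 (0.38). The 41584 call was lost whichever of the 4 libraries was left out (0.074 to 0.295), and the 41589 call without KO replicate 1 (0.27), KO replicate 2 (0.12) or 41589 replicate 1 (0.147).

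Rbl1, the pocket protein gene expressed in cycling cells, had 58.7 and 56.5 CPM in KO, 40.4 and 55.2 CPM in 41585, 29.5 and 47.7 CPM in SOM, 57.1 and 56.1 CPM in 41584, 64.9 and 39.5 CPM in 41589, and 61.6 and 56.2 CPM in WT. All neighbouring groups overlapped. Its fold was 0.08 ± 0.20 in KO and 41585 against the other lines (adjusted p = 0.793) and −0.03 ± 0.29 in KO against WT (0.955).

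Rbl2, the pocket protein gene of resting cells, had 35 and 34.2 CPM in KO, 26.6 and 40 CPM in 41585, 10.3 and 24.2 CPM in SOM, 24.9 and 25 CPM in 41584, 22.7 and 22.4 CPM in 41589, and 36.3 and 27.3 CPM in WT. As for Cdkn1a, all 4 libraries of KO and 41585 lay above the 6 of SOM, 41584 and 41589 (10.3 to 25 CPM), a gap again found in 11.7% of tested genes. The WT libraries lay within the range of 41585. The fold was 0.12 ± 0.36 in KO against WT (adjusted p = 0.849) and 0.07 ± 0.36 in 41585 against WT (0.904). In KO and 41585 against the 4 other lines it was 0.54 ± 0.24 (0.138). Without the line WT the fold of KO and 41585 was 0.71 and was called (0.0284). In SOM the difference from KO was −1.01 ± 0.37 (0.133), and without SOM replicate 2, the higher of the SOM libraries, it was −1.75 and called (0.0425).

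The make-up of the Rb family differed between KO and 41585 and the 4 other lines. Per kb of exon, Rb1 made up 26.2 to 30.8% of the summed Rb1, Rbl1 and Rbl2 mRNA in the 4 libraries of KO and 41585, against 47.5 to 57.5% in the 8 others. Rbl1 made up 46.2 to 50.1% in KO and 41585 and 30.3 to 41.2% in the others. For Rbl2 the shares were 22.4 to 26.6% in KO and 41585 and 9.2 to 14.5% in the others. None of the 3 shares overlapped between KO and 41585 and the others, although SOM replicate 1 had as little Rb1 as KO, its Rbl1 and Rbl2 being low as well. Among single tested genes, 10.2% showed such a gap in CPM with KO and 41585 higher. How often the shares of other gene families part in this way was not counted. Shares within a family are not independent of each other, and they were not tested.

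**Figure D3:**
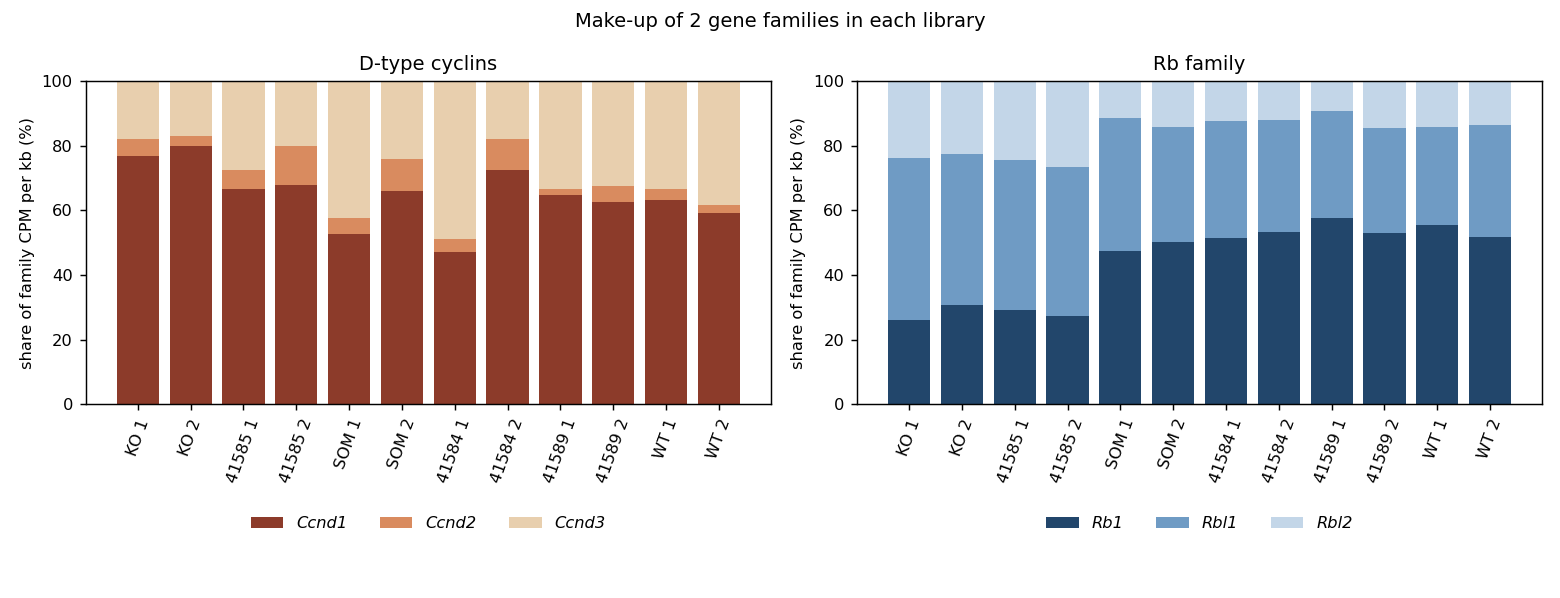
Share of each gene in the summed CPM per kb of the D-type cyclins (left) and of the Rb family (right) in each library. Rb1 takes 26.2 to 30.8% of the Rb family in KO and 41585 and 47.5 to 57.5% in the other libraries, while Ccnd1 takes 66.6 to 80% of the D-type cyclins in KO and 41585 and 47.1 to 72.6% elsewhere.

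How reads were counted, and with which strand setting, is not stated in the descriptions. Exons of 6 of the 10 genes overlap those of a gene on the opposite strand with reads. Ccnd1 shares 1100 exon bases with LTO1 (21 to 91 counts, against at least 192 for Ccnd1). Ccnd3 shares 361 with Bysl, Ccne2 609 with Ints8 (539 to 1329 counts, against at least 132 for Ccne2), Rbl2 693 with Aktip, and Rb1 488 with Rcbtb2 and 408 with Lpar6. Ccnd2 shares bases with Gm43126, which held at most 1 count. Reads from such pairs cannot be told apart if strand was not used in counting. For Ccne1, Cdkn1a, Cdkn1b and Rbl1 no such overlap was found.

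The complemented lines SOM, 41584 and 41589 were each compared with KO. These comparisons share the KO libraries, and Dicer1 mRNA in 41584 and 41589 was near its KO level. In 41584 against KO, 1 gene was called, Rb1, against 7.44% of all genes. In 41589 against KO, Rb1 was called higher and Ccne2 lower (−1.27 ± 0.35, adjusted p = 0.0485), against 7.09% of all genes. The Ccne2 call was lost whichever of the 4 libraries was left out (0.0584 to 0.23), and with only these groups in the fit both were lost (0.0512 for Ccne2, 0.0531 for Rb1). The matching Ccne2 values were −1.24 ± 0.36 in SOM (0.0599) and −1.18 ± 0.35 in 41584 (0.063). For Cdkn1a, 41584 differed from KO by −0.94 ± 0.37 (0.152) and 41589 by −1.07 ± 0.37 (0.111), beside the called −1.79 of SOM. The 41589 value was called by DESeq2 (0.0465), with no filter (0.0105) and with only these groups in the fit (0.0415). With no filter the 41584 value was called too (0.0288). Without 41584 replicate 1 the 41584 value was −1.82 and called (0.0147). Ccnd1 differed from KO by −0.79 ± 0.51 in SOM (0.428), −1.18 ± 0.51 in 41584 (0.19) and −1.01 ± 0.51 in 41589 (0.278), and without 41584 replicate 2 the 41584 value was −2.47 and called (0.0144). Ccne2 in 41584 was likewise called without that library (−1.87, 0.0119).

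Between the lines without miRNA processing, and between the lines with and without siRNA processing, no difference among the 10 genes passed the test. In 41585 against KO, 0 of the 10 genes and 0% of all genes were called by edgeR, and at an unadjusted p under 0.05 there were 0 of the 10 and 995 genes. DESeq2 called 0 of the 10 and 1 gene in all. With only these groups in the fit edgeR called 0 of the 10 and 545 genes in all, and with no filter 0 and 119. The widest differences were 1.35 ± 0.80 for Ccnd2 and 0.66 ± 0.38 for Ccnd3. In 41589 against 41584, 0 of the 10 and 0% of all genes were called by edgeR and by DESeq2, with 0 of the 10 and 103 genes at an unadjusted p under 0.05. All folds there lay between −0.69 ± 0.80 (Ccnd2) and 0.51 ± 0.38 (Ccnd3). With 2 libraries a group, these standard errors do not show the levels to be equal.

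Several of the 10 genes differed between SOM, 41584 and 41589 together and WT without passing the test. For the mean of SOM, 41584 and 41589 against WT, edgeR called 0 of the 10 genes and 0.0889% of all genes. At an unadjusted p under 0.05 there were 6 of the 10, and 2867 genes in all. These were Ccnd1 (1.57 ± 0.46, adjusted p = 0.159), Ccnd2 (2.70 ± 0.82, 0.163), Ccnd3 (1.26 ± 0.34, 0.149), Ccne1 (0.71 ± 0.26, 0.197), Cdkn1a (−1.19 ± 0.29, 0.142) and Cdkn1b (−0.78 ± 0.30, 0.201). DESeq2 called the first 3 and Cdkn1a (adjusted p 0.00842 to 0.0499). Without 41584 replicate 1, edgeR called Ccnd1, Ccnd2 and Cdkn1a (0.0117 to 0.0348), and without 41589 replicate 1 it called these and Ccnd3 (0.0277 to 0.0393). Those 2 libraries were nearer to WT in Ccnd1 and Ccnd2 than the other libraries of these 3 lines.

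The remaining G1/S regulators were taken as a list of 37 genes, of which 36 were tested. In KO and 41585 against the other lines, 4 were higher and 1 lower, or 5 of 36, beside 22.4% of all tested genes. The median fold was −0.00, against 0.02 over all genes. Without 41585 replicate 2 the count was 8, and without the line 41585 it was 2. Lats2, a Hippo pathway kinase that is also a known miR-290 family target, had 29.9 and 22.3 CPM in KO, 24 and 35.5 CPM in 41585, and 1.24 and 1.53 CPM in WT, and the other lines held 2.81 to 11.3 CPM. It rose by 2.56 ± 0.47 against the 4 other lines (adjusted p = 0.00578) and by 4.23 ± 0.63 in KO against WT (0.00189). Both calls held in every fit without 1 library, and without the line 41585 the first was lost (0.0561).

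The INK4 inhibitor genes, whose products bind Cdk4 and Cdk6, were scarce, so that their folds rest on few reads. Cdkn2a had 2.44 to 5.73 CPM in the 4 libraries of KO and 41585 and 0 to 1.03 CPM in the 8 others, with at most 6 counts in each of these 8. It was higher by 3.39 ± 0.49 (adjusted p = 0.00194) in KO and 41585, and in KO against WT, where a WT library held 0 counts, the call (0.0332) was lost without KO replicate 1 (0.147), KO replicate 2 (0.126) or WT replicate 1 (0.199). Cdkn2b had 3.22 to 5.37 CPM in KO and 41585 and 0.514 to 2.17 CPM in the others, a fold of 1.93 ± 0.47 (0.0188) that was not called without the line KO (0.108), 41585 (0.066) or 41584 (0.0627).

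Of the activators in that list, Mycn, a transcription factor that promotes growth, rose by 0.74 ± 0.15 in KO and 41585 (adjusted p = 0.00969), a call lost without 41584 replicate 1 (0.134) and without the line KO (0.0602) or 41585 (0.0783). Tfdp2, a dimer partner of E2F factors, was at 80.5 to 119 CPM in KO and 41585 and 122 to 199 CPM in the others. It fell by 0.77 ± 0.15 against the 4 other lines (0.00827) and by 0.91 ± 0.25 in KO against WT (0.0347).

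In KO against WT, 4 genes of the list were higher and 1 lower, or 5 of 36, beside 13.2% of all tested genes. The count was 1 or 2 without 1 library. Cdk6 and Skp2, among those higher, did not pass the test over the line totals. Cdk6, a partner of D-type cyclins, had 66.2 and 79.9 CPM in KO and 10.5 and 13.8 CPM in WT, a fold of 2.58 ± 0.68 (adjusted p = 0.0279). Skp2, the ubiquitin ligase subunit that targets Cdkn1b, had 167 and 162 CPM in KO and 78.6 and 83.1 CPM in WT, a fold of 1.02 ± 0.27 (0.03). The KO calls of Cdk6, Skp2 and Tfdp2 were each lost whichever of the 4 libraries was left out (0.089 to 0.211). Over the line totals the fold of Cdk6 was 0.94 ± 0.42 (0.137), and it was called over the 6 group means (1.07, 0.0452), with the replicate block (1.26, 0.00296) and without the line WT (0.66, 0.0161). That of Skp2 was 0.53 ± 0.19 (0.0764), and it was called with no filter (0.0401), over the 6 group means (0.0467), with the replicate block (0.0456) and without 41585 replicate 2 (0.0303) or SOM replicate 1 (0.0452). Like Ccnd1, Cdk6 was high in SOM replicate 2 (75 CPM), 41584 replicate 2 (71.7 CPM) and 41589 replicate 2 (61.7 CPM).

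**Figure D4:**
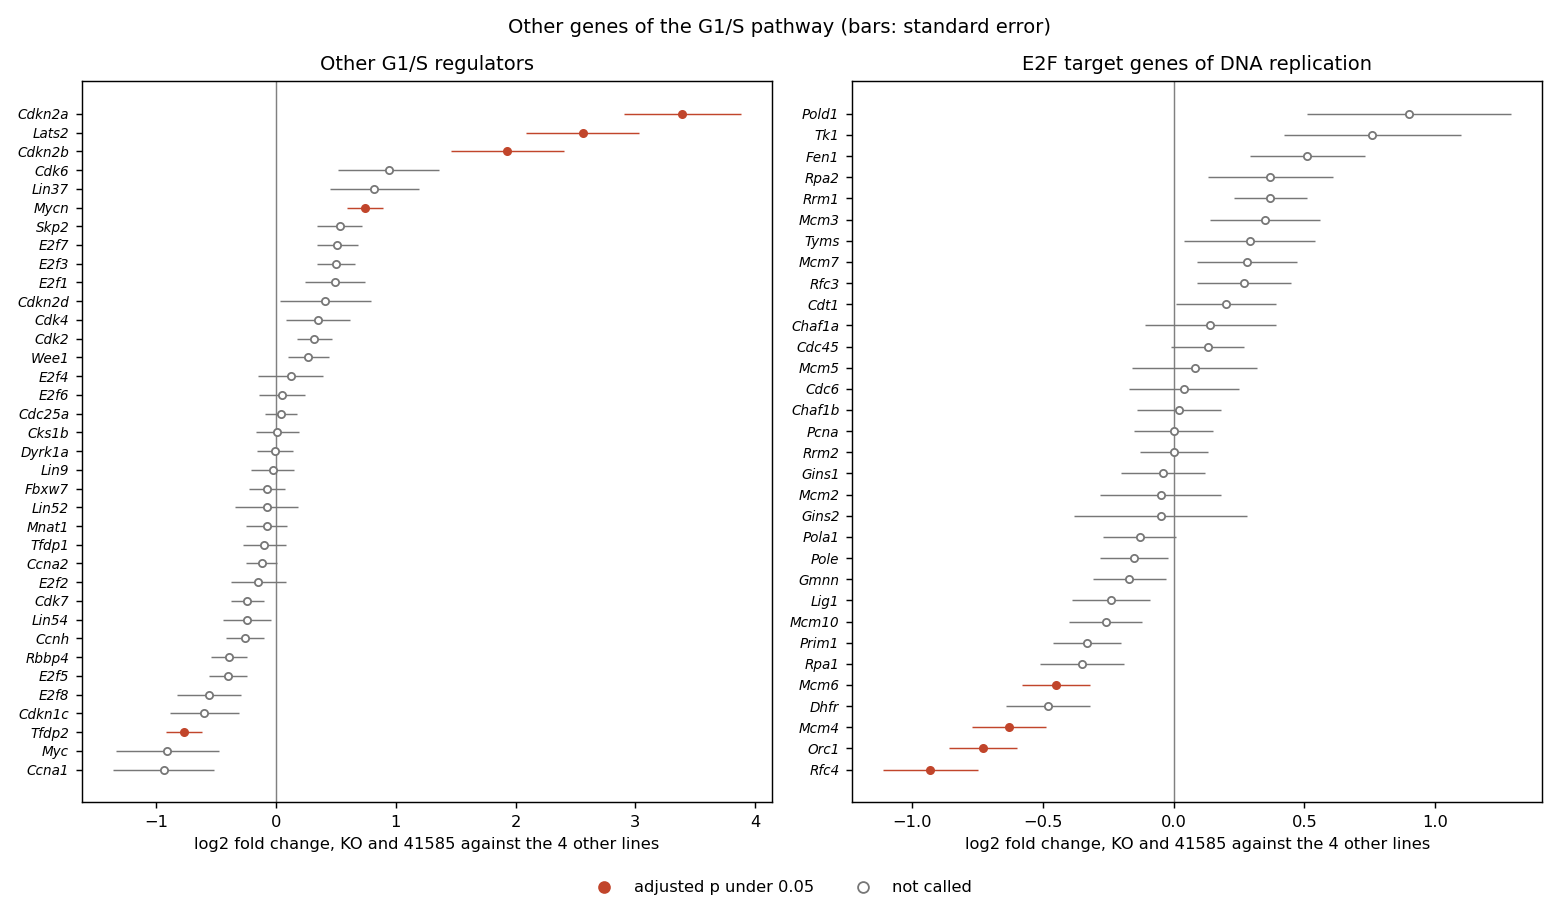
Log2 fold change with its standard error of the 36 tested G1/S regulators outside the 10 genes (left) and of 32 E2F target genes of DNA replication (right), for KO and 41585 against the 4 other lines. Red points have an adjusted p under 0.05, with 4 higher and 1 lower on the left, 4 lower on the right, and both lists centre near 0.

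The folds of E2F target genes of DNA replication centred near 0. Of 32 tested, 0 were higher and 4 lower in KO and 41585 against the other lines, beside 13.9% higher and 8.54% lower among all tested genes. Their median fold was 0.00. The count was 2 without 41589 replicate 1 and 8 with the replicate block. Orc1, of the origin recognition complex, had 85.8 to 92.4 CPM in KO and 41585 and 112 to 198 CPM in the others, and fell by 0.73 ± 0.13 (adjusted p = 0.00612). Rfc4, of the clamp loader, fell by 0.93 ± 0.18 (0.00805). The helicase subunit genes Mcm4 and Mcm6 fell by 0.63 ± 0.14 (0.0115) and 0.45 ± 0.13 (0.0364). Without 41589 replicate 1 the Rfc4 call was lost (0.0535). The Mcm6 call was lost without 41585 replicate 2 (0.0555), SOM replicate 2 (0.0515), 41584 replicate 1 (0.0872), 41584 replicate 2 (0.0549), 41589 replicate 1 (0.0847) or WT replicate 2 (0.111), and without the line 41585 only Orc1 stayed called. Rfc4 shares 194 exon bases with Eif4a2 on the opposite strand, which held 6259 to 24277 counts. In KO against WT edgeR called 0 of the 32 and DESeq2 called 2 (6 had an unadjusted p under 0.05), beside 13.2% of all genes called by edgeR. Of the 4 genes named above, edgeR called Orc1 (−0.61, adjusted p = 0.0128), Rfc4 (−0.73, 0.0145) and Mcm4 (−0.41, 0.0453) with only these groups in the fit. That fit called 4892 genes in all. In 41585 against WT 9 of the 32 were higher and 2 lower, beside 16.3% higher and 12.9% lower among all genes.

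Over the 12 libraries some of the 10 genes varied together. On log2 CPM, Pearson's r was 0.89 between Ccnd1 and Ccnd2, 0.79 between Cdkn1a and Rbl2 and −0.75 between Ccnd1 and Rb1. Ccne1 ran against Cdkn1a (−0.73) and Rbl2 (−0.80). The libraries fall into lines, so these values describe differences between lines as much as within them. Among 9976 genes of at least 5 CPM on average, those most like Ccnd1 were Dnmt3b (r = 0.989), Ddc (0.985) and Usp4 (0.98). Those most like Cdkn1a were Lima1 (0.951), Mettl27 (0.944) and Map4 (0.944), and those most like Rbl2 were Dnah8 (0.966), Elavl2 (0.957) and Macf1 (0.951). Dnah8 shows the shared shape, with 206 and 169 CPM in KO, 178 and 247 CPM in 41585, 44.4 to 148 CPM in SOM, 41584 and 41589, and 196 and 193 CPM in WT.

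The presence of the AGCACTT site of the listed miR-290 and miR-302 miRNAs was set beside the folds. Sites of other members of these families were not searched for. In KO and 41585 against the other lines the 5 genes with a site had folds of 0.08 to 1.30 (median 1.16), and the 5 without one −1.30 to 1.12 (median 0.03). In KO against WT the medians were 0.12 with a site and 0.34 without. Over the 12837 tested genes with a 3' UTR of at least 50 bases, the 2104 with a site had a median of 0.05 and the 10733 without one 0.03 in the first comparison, and −0.01 and 0.00 in KO against WT. Of the genes with a site, Ccnd1 was the one called over the lines, and Rbl1, with a site near its stop codon, had the smallest fold of the 5. Ccne2, the other cyclin that was called, had none.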

How the data were processed

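Gene counts of 12 poly(A) libraries were used. The deposited values are raw counts, made by the authors from reads aligned with STAR 2.4.2a to mm10 (GRCm38), per the submitters' processing notes. Libraries were reverse-stranded, per the labels' protocols. The counting program, strand setting and annotation were not given there. Columns were assigned to libraries by the sample descriptions, and 47224 of the 47643 gene IDs had a symbol in GENCODE M21.

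The counts were fitted with edgeR 4.0.16 (R 4.3.3; quasi-likelihood, robust, TMM, filterByExpr, 1 mean per group, all 12 libraries), with Benjamini-Hochberg adjustment over all 14629 tested genes and a threshold of 0.05. The comparison of KO and 41585 with the 4 other lines used counts summed per line. SOM was placed with WT, 41584 and 41589 although its processing is not described. A fold is a log2 value with a standard error equal to its size over the root of the F statistic. Alternatives were DESeq2 1.42.0, RLE scaling, no filter, fits of the compared groups alone, the replicate number as a block, and leaving out libraries or lines. CPM per kb divides by the union of a gene's exons. Fits were tested on simulated data.

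Members and gene lists were chosen with earlier results of these data known. All 10 members were named, with up to 8 called genes a list by smallest adjusted p and 3 genes of most similar pattern for Cdkn1a, Rbl2 and Ccnd1. Family shares, exon overlaps and the alternatives for the listed genes were added after the values were seen. Whether both libraries of a line stem from separate cultures is not described, so the p-values may reflect technical spread alone.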

Additional observations from a re-analysis of the deposited data

How the results depend on the processing

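Of the counts of called genes among the 10, KO and 41585 against the other lines gave 3 calls, and 5 with the replicate block, 5 over the 6 group means, 1 without the line 41585, 5 without the line WT, and 2 to 4 without 1 library. KO against WT gave 3, and 5 with no filter, 5 with only these groups in the fit, and 0 to 2 without 1 library. 41585 against WT gave 4, and 0 to 4 without 1 library. 41585 against 41584 gave 2, and 5 with no filter, 1 with only these groups, and 0 to 3 without 1 library. SOM against KO gave 1, and 2 with no filter, 2 by DESeq2, 4 with only these groups, and 0 to 1 without 1 library. 41584 against KO gave 1, and 4 with no filter, 2 by DESeq2, 2 with the replicate block, and 0 to 2 without 1 library. 41589 against KO gave 2, and 4 with no filter, 1 with only these groups, and 0 to 1 without 1 library. SOM, 41584 and 41589 against WT gave 0, and 5 with no filter, 4 by DESeq2, and 0 to 4 without 1 library. The causes of these shifts were not tested. The calls over all genes moved too: in KO against WT they were 1929, and 2950 with no filter, 4892 with only these groups and 228 to 601 without 1 library. Directions changed only among folds near 0. In KO and 41585 against the other lines, Cdkn1b was −0.14 without the line KO, −0.06 without SOM, −0.01 without 41584 and −0.08 without 41589, Rbl1 was −0.11 without KO and −0.03 without SOM, and Ccne1 was 0.05 without SOM. Without 1 library, Cdkn1b ranged over −0.18 to 0.23 and Rbl1 over −0.06 to 0.18 there. In KO against WT the ranges were −0.10 to 0.03 for Rbl1, −0.01 to 0.80 for Ccne1, −0.21 to 0.45 for Cdkn1a and −0.07 to 0.34 for Rbl2. Deviations of same-numbered libraries from their group means correlated at −0.08 to 0.51 (median 0.04), above 0.1 in 5 of 15 pairs of groups and above 0 in 8. The numbers were therefore not taken to pair the libraries, although Ccnd1 and Cdk6 were higher in replicate 2 in 6 of 6 groups and Ccnd2 in 5 of 6. For KO and 41585 against the other lines, the replicate block needed a fit of single libraries. That fit called Ccnd2 (1.73, adjusted p = 0.00413) and Cdkn1a (1.24, 0.00065) with the block, and over the 6 group means without it (1.45, 0.0343 and 1.22, 0.00124). In the other comparisons the block added calls of Ccnd2 in KO against WT (3.10, 0.0131), Ccne2 in 41585 against WT (0.98, 0.0492), Ccnd1 in 41585 against 41584 (1.40, 0.0304) and Ccnd1 in 41584 against KO (−1.40, 0.0387), and removed none. With 1 library left out, the spread of the group came from the other groups. For Cdkn2a in KO against WT without WT replicate 2 no fold could be had, the remaining WT library being at 0. The shallowest counts of these genes were 21 for Ccnd2 and 60 for Rbl2, and 2 libraries a group limit the rest.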
